A study of Mus musculus with 22 samples.

Results

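The lysosomal genes described here are 36 genes picked by name, of 16469 genes in the deposited table: 5 lysosomal membrane proteins (Lamp1, Lamp2, Scarb2, Cd63 and Mcoln1), 10 proteases, 6 glycosidases, 7 lipid-handling proteins, progranulin (Grn), the transcription factor Tfeb and 6 parts of the proton pump. All 36 were found in the table, and 34 passed the filter of at least 1 CPM (reads scaled to the library's total) in at least 3 libraries. Gla, the alpha-galactosidase, held 2 to 11 reads per library and Tfeb held 2 to 13, so neither was tested. The transcripts were counted from their 3' ends in 22 livers of C57BL6J mice, perfused before sampling, with 1 library per animal number. Of these, 3 livers came from mice given lipid nanoparticles with Dsi-RNA at 2 mg/kg, 4 from mice given BLT-1 at 1 mg/kg and then, 24 h later, particles at 0.2 mg/kg, and 8 from mice given particles at 0.2 mg/kg alone, all killed 24 h after the particles. The remaining 7 were controls, for which the labels give no treatment. Dsi-RNA is Dicer-substrate RNA, which the cell's Dicer trims into a small interfering RNA, and the table's column names give Hprt as its target. BLT-1 is known as a blocker of lipid transport by the scavenger receptor SR-BI. No group received BLT-1 alone or particles without the RNA, and the labels give neither age nor sex.

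The lysosome is the acidic compartment in which endocytosed material, including lipid particles, is digested. Its hydrolases work at low pH, which the vacuolar ATPase maintains by pumping protons across the membrane, and its membrane proteins shield the membrane and carry products out. Many of its genes share a promoter element, the CLEAR element, built around an E-box and bound by TFEB and its relatives. In the liver, hepatocytes and the resident macrophages (Kupffer cells) both hold many lysosomes. In whole tissue, fewer cells of a type and less RNA per cell cannot be told apart.

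Promoter windows are shown for genes with the E-box and for genes whose transcript level changed, so that the letters stand beside the values. RefSeq windows of 300 bases around the annotated start were found for 31 of the 36 genes, 38 windows in all (build GRCm38.p6). The E-box core CACGTG, the same on both strands, lay in 12 of the 38 windows, a share of 31.6%, against 7.15% of all 32851 windows and 20.2% of 94 windows of other lysosomal genes. The longer TCACGTGA, which contains it, lay in 6 of the 38 (15.8%), against 0.974% of all windows and 8.51% of the 94 windows of other lysosomal genes. In the windows below capitals mark TCACGTGA in Ctsd (cathepsin D, chr7:142387778-142388077, minus strand) and in Mcoln1 (a lysosomal calcium channel, chr8:3500269-3500568, plus strand). They mark CACGTG in one of the windows of Lgmn (the asparagine endopeptidase legumain, chr12:102439043-102439342, minus strand). In Ctss (cathepsin S, chr3:95526536-95526835, plus strand) they mark a match on the opposite strand to TTTC, any 2 bases, TTTC, a pattern like the sites of interferon regulatory factors. It was searched on both strands and lay in 2 of the 38 windows (5.26%) and in 3.44% of all windows. Neither CACGTG nor this pattern lies in the windows of Cd63 (chr10:128909095-128909394, plus strand) or Npc2 (chr12:84773063-84773362, minus strand).
Ctsd: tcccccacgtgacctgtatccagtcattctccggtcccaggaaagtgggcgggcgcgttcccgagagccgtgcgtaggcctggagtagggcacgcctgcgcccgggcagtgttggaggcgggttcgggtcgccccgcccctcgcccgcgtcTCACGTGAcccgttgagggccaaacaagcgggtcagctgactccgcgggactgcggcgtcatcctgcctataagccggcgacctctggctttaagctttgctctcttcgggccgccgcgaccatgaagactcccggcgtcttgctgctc
Mcoln1: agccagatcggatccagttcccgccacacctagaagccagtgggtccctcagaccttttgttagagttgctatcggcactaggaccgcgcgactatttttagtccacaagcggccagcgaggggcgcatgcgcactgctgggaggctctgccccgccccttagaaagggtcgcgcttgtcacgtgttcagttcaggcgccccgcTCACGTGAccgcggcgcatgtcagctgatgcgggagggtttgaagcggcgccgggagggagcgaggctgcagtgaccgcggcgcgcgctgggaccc
Lgmn: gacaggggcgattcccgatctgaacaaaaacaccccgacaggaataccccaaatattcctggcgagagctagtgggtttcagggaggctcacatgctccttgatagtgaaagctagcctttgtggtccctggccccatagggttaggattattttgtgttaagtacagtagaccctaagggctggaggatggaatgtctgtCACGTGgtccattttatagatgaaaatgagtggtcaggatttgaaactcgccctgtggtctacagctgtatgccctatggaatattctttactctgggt
Ctss: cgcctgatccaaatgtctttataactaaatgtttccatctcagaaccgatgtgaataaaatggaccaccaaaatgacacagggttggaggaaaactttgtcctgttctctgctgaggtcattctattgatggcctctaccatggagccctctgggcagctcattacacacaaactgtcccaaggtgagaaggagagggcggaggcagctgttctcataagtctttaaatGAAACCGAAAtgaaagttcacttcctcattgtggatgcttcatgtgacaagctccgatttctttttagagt
Cd63: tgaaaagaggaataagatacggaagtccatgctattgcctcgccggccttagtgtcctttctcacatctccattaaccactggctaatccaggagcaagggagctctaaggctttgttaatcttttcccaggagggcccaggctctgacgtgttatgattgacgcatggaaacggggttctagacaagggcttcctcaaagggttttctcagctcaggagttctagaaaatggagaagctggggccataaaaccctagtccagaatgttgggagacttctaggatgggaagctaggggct
Npc2: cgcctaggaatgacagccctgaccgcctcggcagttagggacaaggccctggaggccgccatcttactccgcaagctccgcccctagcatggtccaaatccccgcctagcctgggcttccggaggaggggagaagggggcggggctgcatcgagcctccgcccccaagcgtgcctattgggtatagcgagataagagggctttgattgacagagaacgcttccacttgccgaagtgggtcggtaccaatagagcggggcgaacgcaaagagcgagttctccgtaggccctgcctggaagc
Of the 9 genes that limma called with all 22 libraries in any comparison, 7 had a window, and 1 of those 7 (Lgmn) held CACGTG. Ctsl, which was called when controls 28 and 29 were left out and between the doses when those groups were fitted alone, also holds it. Ctsd and Mcoln1 hold the longer form and were not called by limma in any comparison, with or without those controls.

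Libraries held 7152596 to 15101565 reads, and 14016 to 14850 genes were detected in each. Hprt, the named target, averaged 15.3 ± 2.32 CPM at 2 mg/kg, 27.2 ± 2.07 with BLT-1, 27.8 ± 1.61 at 0.2 mg/kg and 30.1 ± 4.87 in controls (SD; n = 3, 4, 8 and 7), and at 2 mg/kg it was lower than in controls by limma (log2 -0.95 ± 0.11 SE, adjusted p = 1.36e-05). Against controls Hprt was not called at 0.2 mg/kg (log2 -0.10, limma adjusted p = 0.573) or with BLT-1 (log2 -0.13, limma adjusted p = 0.58). Markers of hepatocytes, the main liver cell, summed to 24261 to 43605 CPM per library over 10 genes, all of them detected in every library. The livers at 2 mg/kg also held Xist at 2.82 to 4.88 CPM, against 0 to 0.312 in controls, and the Y-linked Ddx3y at 6.47 to 8.90 CPM, against 15.6 to 18.5. This difference and the dose cannot be told apart, and the labels do not say whether a library holds RNA of more than 1 animal, so the 3 libraries at 2 mg/kg may not be single mice. Of the 36 lysosomal genes, Lamp2, Gla and Atp6ap1 are X-linked, and so is the target Hprt. Controls 28 and 29 stood apart from the other 5 controls in several of the lysosomal genes, and results are given with and without them where they matter.

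At 2 mg/kg, 6 of the 34 tested genes were higher than in controls and 1 was lower. The higher ones were Cd63, a tetraspanin of late endosomes and lysosomes, the proteases Ctsb and Tpp1, the ceramidase Asah1, the cholesterol carrier Npc2 and the pump's accessory subunit Atp6ap1. The lower one was Ctss, a cysteine protease of antigen-presenting cells. The shifts were between log2 -0.39 and 0.91, and the median over the 34 genes was log2 0.07, beside 0.01 over all 10763 genes tested. Over all genes 7.87% were called in this comparison, 4.03% higher and 3.84% lower, by limma on log2(CPM + 0.5) with Benjamini-Hochberg adjusted p below 0.05. By edgeR on the reads, 4 genes were higher (Cd63, Ctsb, Npc2 and Atp6ap1) and Ctss lower, with 7.1% of all genes called. DESeq2 called Cd63, Ctsb, Ctsz, Lgmn and Npc2 higher and Ctss lower. It called 9.54% of the 9235 genes to which it gave an adjusted p, a number that differs by comparison. With the 10 libraries of these groups alone in the fit, limma called 0 of the 34 genes in either direction (adjusted p of these 7 from 0.0982 for Ctss to 0.184 for Cd63) and 3.11% of all genes, with nearly the same log2 fold changes. In a simulated comparison of these groups, limma called 20.9% of genes changed 1.5-fold and 56.7% of genes changed 2-fold. The changed genes were drawn from all levels of expression, so these are not the shares for the lysosomal genes.

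**Figure D1:**
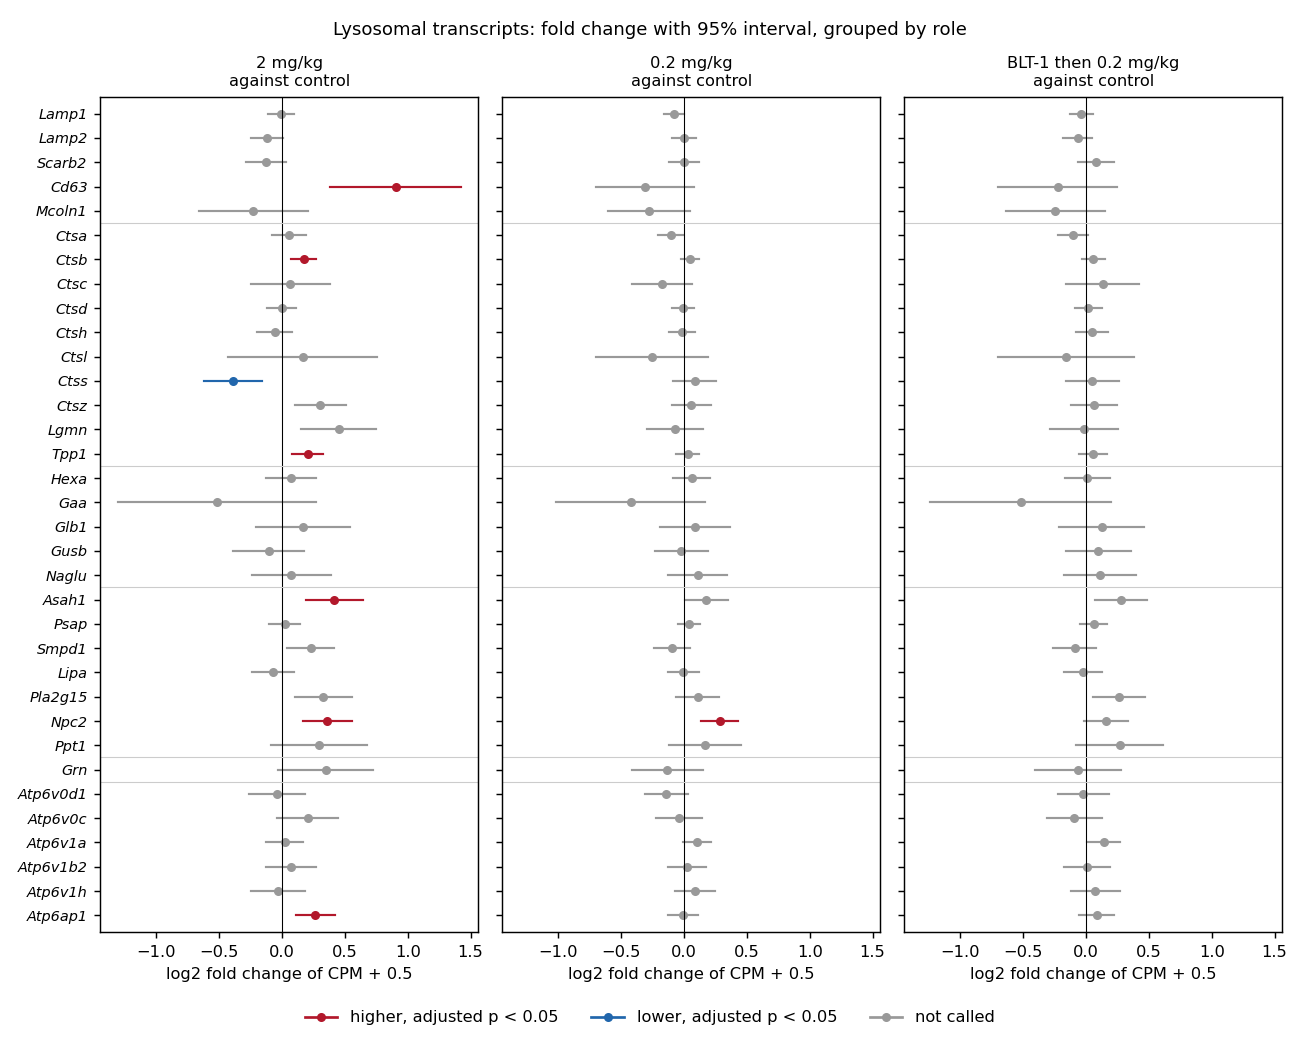
Log2 fold change of CPM + 0.5 (horizontal axis) with its 95% interval for the 34 tested lysosomal genes (rows, divided by role) in 2 mg/kg, 0.2 mg/kg, and BLT-1 then 0.2 mg/kg livers, each against the same 7 controls. At 2 mg/kg 6 genes are called higher (red) and 1 lower (blue), at 0.2 mg/kg 1 is higher, and with BLT-1 none is called.

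Among the membrane proteins Cd63 (ENSMUSG00000025351.15) held 34.4, 15.8 and 36.5 CPM at 2 mg/kg (livers 3, 16 and 36). The 4 livers with BLT-1 held 9.89 to 15.6 CPM and the 8 livers at 0.2 mg/kg 9.42 to 12.9 CPM, while controls ranged from 9.12 to 22.5 with a median of 13.1. Livers 3 and 36 lay above every control, and liver 16 lay among them, below controls 28 and 29. The log2 fold change against controls was 0.91 ± 0.25 (SE, adjusted p = 0.0276 by limma). Without liver 3 it was 0.75 (limma adjusted p = 0.211) and without liver 36 it was 0.70 (limma adjusted p = 0.21). The other 4 membrane proteins were not called. Lamp1, the most used marker of the lysosomal membrane, averaged 98.6 ± 3.53 CPM at 2 mg/kg and 99.4 ± 4.83 CPM in controls (SD), and its relative Lamp2 averaged 83.8 ± 9.58 and 90.7 ± 5.48 CPM.

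Of the 10 proteases, Ctsb (cathepsin B, ENSMUSG00000021939.9) was at 52.4, 54.0 and 55.8 CPM at 2 mg/kg, against 46.2 to 49.5 CPM in the 7 controls. The groups did not overlap, and the shift was small, log2 0.17 ± 0.05 (SE, limma adjusted p = 0.0267). Tpp1 (tripeptidyl peptidase, ENSMUSG00000030894.6) held 18.2, 17.1 and 20.3 CPM at 2 mg/kg, against 15.4 to 16.7 CPM in controls. Again all 3 livers lay above the controls, by log2 0.20 ± 0.06 (SE, limma adjusted p = 0.034, edgeR adjusted p = 0.0953). On the deposited spike-in scale the median of all genes shifted by log2 -0.23, and Ctsb and Tpp1 were at -0.073 and -0.040 there, which is 0.15 and 0.19 above that median, with no call. Ctss (ENSMUSG00000038642.11) held 18.4, 24.1 and 16.7 CPM at 2 mg/kg, against 22.8 to 27.6 CPM in controls. Livers 3 and 36 lay below every control and liver 16 among them. Its log2 fold change was -0.39 ± 0.11 (SE, limma adjusted p = 0.0314). Lgmn and the cathepsin Z gene Ctsz missed the threshold at log2 0.45 and 0.31 (limma adjusted p = 0.0592 and 0.0594). Ctsd, the main aspartic protease, averaged 55.7 ± 1.70 CPM at 2 mg/kg and 55.8 ± 1.75 CPM in controls (SD).

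Calls among the proteases were lost in some fits with 1 liver left out, where the log2 fold changes kept their direction. Over all genes, limma called 847 in the full fit, 373 without liver 3, 1056 without liver 16 and 427 without liver 36. For Ctsb the limma adjusted p was 0.0555 without liver 16 and 0.129 without liver 36, with log2 0.17 and 0.16, and 0.0783 with the range of animal numbers as a covariate (log2 0.15). For Ctss it was 0.2 without liver 3 and 0.261 without liver 36 (log2 -0.34 and -0.28), and 0.0554 and 0.0538 without control 14 or control 15 (log2 -0.37 for each). For Tpp1 it was 0.0859 without liver 3 and 0.26 without liver 36 (log2 0.22 and 0.14), and between 0.0503 and 0.0592 without control 2, 14, 15 or 27 (log2 0.19 to 0.20).

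**Figure D2:**
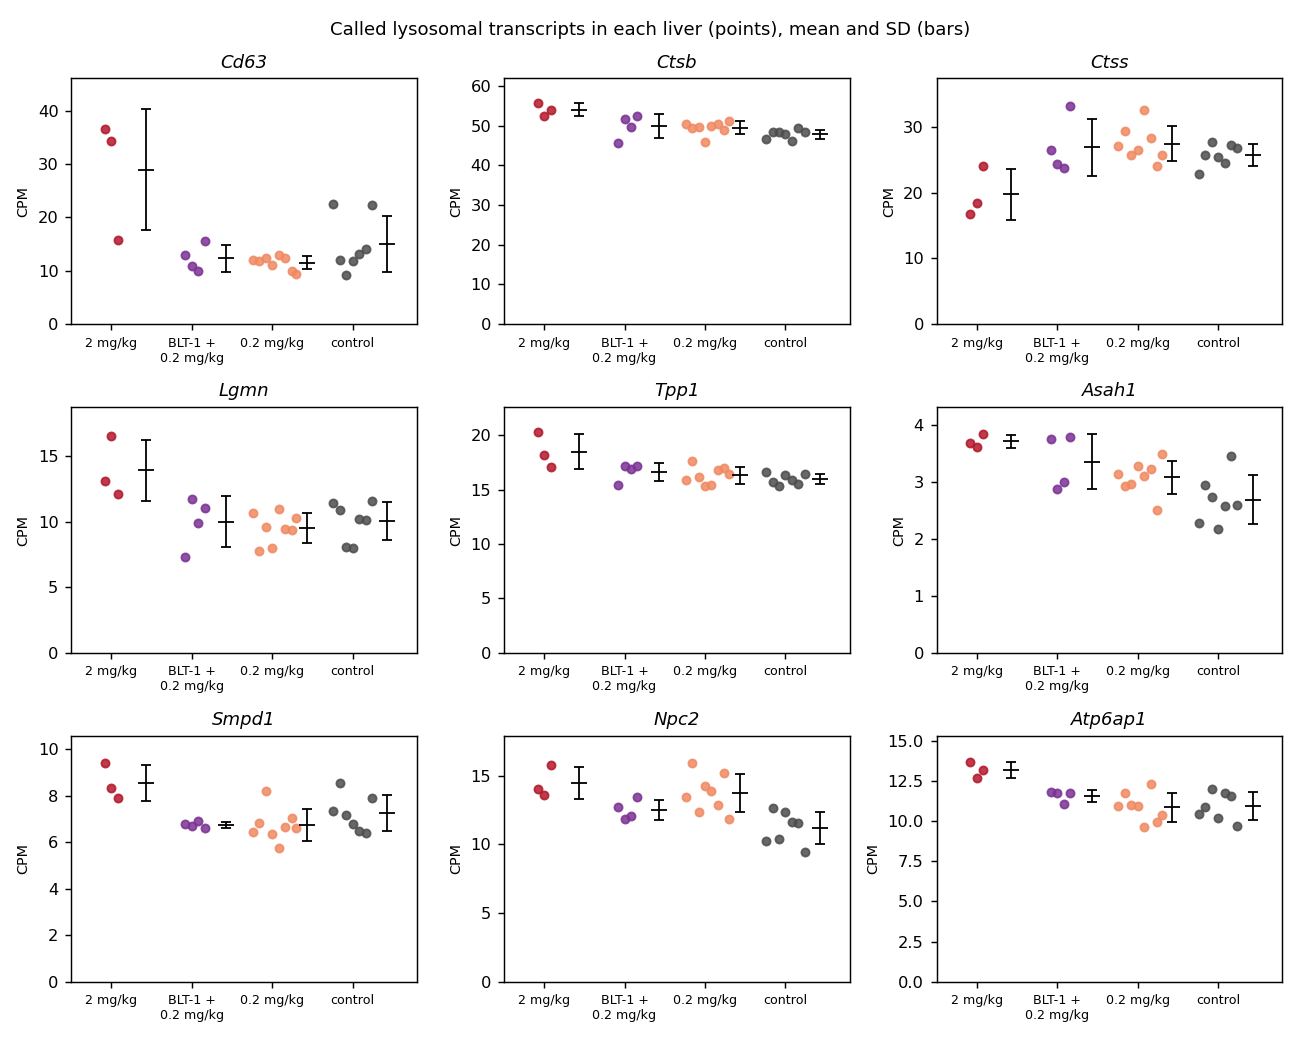
CPM (vertical axis, from 0) in each liver for the 9 lysosomal genes that limma called in any comparison with all 22 libraries, with the mean and SD of each group beside its points. All 3 livers at 2 mg/kg lie above all controls in Ctsb, Lgmn, Tpp1, Asah1, Npc2 and Atp6ap1, while in Cd63 and Ctss liver 16 lies within the control range.

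The lipid-handling proteins held 2 of the higher calls. Asah1 (acid ceramidase, ENSMUSG00000031591.15) held 3.62, 3.83 and 3.68 CPM at 2 mg/kg, against 2.18 to 3.46 CPM in controls. The groups did not overlap (log2 0.41 ± 0.11 SE, limma adjusted p = 0.0207, edgeR adjusted p = 0.0698). Npc2 (ENSMUSG00000021242.10), which hands cholesterol to the transporter NPC1, held 13.6, 15.8 and 14.04 CPM at 2 mg/kg, against 9.48 to 12.7 CPM in controls. These groups did not overlap either (log2 0.36 ± 0.09 SE, limma adjusted p = 0.018). Pla2g15, a lysosomal phospholipase, lay at 2.08, 1.52 and 1.63 CPM, also above all controls (0.952 to 1.46 CPM), and was not called (limma adjusted p = 0.0732). Lipa, the acid lipase that frees cholesterol and fatty acids, averaged 34.6 ± 0.696 CPM at 2 mg/kg and 36.5 ± 2.34 CPM in controls (SD). Psap, the precursor of the saposins that present sphingolipids to their hydrolases, averaged 66.8 ± 1.59 and 65.9 ± 3.56 CPM (SD). Without liver 3, 16 or 36 the limma adjusted p of Asah1 was 0.0767, 0.063 and 0.0814 (log2 0.44, 0.39 and 0.42), and that of Npc2 was 0.0898 without liver 16 and 0.055 without liver 36 (log2 0.30 and 0.38).

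In the proton pump, Atp6ap1 (ENSMUSG00000019087.14) held 12.7, 13.2 and 13.7 CPM at 2 mg/kg, against 9.69 to 12.0 CPM in controls. The groups did not overlap (log2 0.26 ± 0.07 SE, limma adjusted p = 0.0306). That call was lost without liver 3, 16 or 36 (limma adjusted p = 0.0694, 0.0649 and 0.152; log2 0.30, 0.27 and 0.24) without control 1 (0.0546; log2 0.25), and with the range of animal numbers as a covariate (0.0676; log2 0.24). The 5 other pump genes were not called, with log2 fold changes between -0.04 and 0.21. They include Atp6v0c of the proton-carrying ring and Atp6v1a, which binds ATP and averaged 13.4 ± 1.60 CPM at 2 mg/kg and 13.2 ± 0.846 CPM in controls (SD). None of the 5 tested glycosidases was called: Hexa, a glycosidase that acts on gangliosides, averaged 7.50 ± 1.64 and 7.03 ± 0.469 CPM (SD). Gaa, which digests glycogen, was at 34.1 CPM in control 1 and at 4.79 to 9.87 CPM in the other controls, so its log2 fold change of -0.52 carried an interval of -1.31 to 0.27.

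In all, 7 of the 34 genes had every liver at 2 mg/kg above every control and none had every liver below. Over all genes 4.2% lay above and 3.34% below in this way. The summed level of the 36 genes was 1167 to 1233 CPM at 2 mg/kg, against 1040 to 1418 CPM in controls. The 2 highest sums were those of controls 28 and 29, and the other 5 controls summed to 1040 to 1072 CPM. Much of that gap was Ctsl alone, at 473 and 496 CPM in controls 28 and 29 and 161 to 182 CPM in the other 5. The sum is therefore not a measure of the 36 genes together.

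The higher dose was set against the lower one to ask which of these transcripts differed between doses. At 2 mg/kg 4 genes were higher than at 0.2 mg/kg (Cd63, Lgmn, Smpd1 and Atp6ap1) and Ctss was lower, by limma and by edgeR alike, with 5.97% of all genes called by limma (2.95% higher and 3.03% lower) and 5.51% by edgeR. DESeq2 gave 3 higher and 1 lower, with 10.8% called of the 6758 genes to which it gave an adjusted p. With these groups alone in the fit limma called Cd63, Ctsl, Grn and Lgmn higher and Ctss lower, with 5.51% of all genes called, and Smpd1 and Atp6ap1 were lost (adjusted p = 0.0703 and 0.07). The median over the 34 genes was log2 0.08, beside 0.00 over all genes. Cd63 lay at 15.8 to 36.5 CPM at 2 mg/kg and at 9.42 to 12.9 CPM at 0.2 mg/kg, so all 3 livers lay above all 8 (log2 1.22 ± 0.25 SE, limma adjusted p = 0.0043). Lgmn (ENSMUSG00000021190.15) held 16.6, 12.1 and 13.1 CPM at 2 mg/kg, against 7.79 to 11.0 CPM with a median of 9.53 at 0.2 mg/kg. These groups did not overlap (log2 0.52 ± 0.14 SE, limma adjusted p = 0.0299).

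Smpd1 (acid sphingomyelinase, ENSMUSG00000037049.10), which cuts sphingomyelin into ceramide, held 8.33, 7.89 and 9.42 CPM at 2 mg/kg. The 8 livers at 0.2 mg/kg held 5.76 to 8.22 CPM with a median of 6.65, and 1 of them lay within the range at 2 mg/kg (log2 0.32 ± 0.09 SE, limma adjusted p = 0.0324). Atp6ap1 at 0.2 mg/kg was 9.61 to 12.3 CPM, below all 3 livers at 2 mg/kg (log2 0.27 ± 0.07 SE, limma adjusted p = 0.0284). Ctss at 0.2 mg/kg was 24.0 to 32.6 CPM, and liver 16 at 24.1 CPM reached into that range (log2 -0.47 ± 0.11 SE, limma adjusted p = 0.00972). Scarb2, an abundant protein of the lysosomal membrane, lay at 22.58 to 24.45 CPM at 2 mg/kg, just below the 24.51 to 27.04 CPM at 0.2 mg/kg, without a call (limma adjusted p = 0.418). In all, 7 genes lay above and 1 below without overlap, where 4.02% and 3.62% of all genes did.

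Each of these 5 calls was lost without liver 3 and also without liver 36. Calls over all genes fell as well, from 643 in the full fit to 228 without liver 3 and 330 without liver 36. Without liver 3 the values were log2 1.05 for Cd63, -0.43 for Ctss, 0.39 for Lgmn, 0.34 for Smpd1 and 0.30 for Atp6ap1, and without liver 36 they were 1.00, -0.37, 0.55, 0.25 and 0.24, with limma adjusted p between 0.0579 and 0.268. Lgmn was also lost without liver 4 at 0.2 mg/kg (log2 0.49). Smpd1 was lost without liver 4, 5, 38 or 39 (log2 0.31, 0.29, 0.30 and 0.32), and Atp6ap1 without liver 16, 31 or 38 (log2 0.27, 0.25 and 0.26), with limma adjusted p between 0.0506 and 0.0625.

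At 0.2 mg/kg alone, 1 of the 34 genes was higher than in controls and none was lower. It was Npc2, at 11.9 to 15.9 CPM with a median of 13.6 in 8 livers, against 9.48 to 12.7 CPM with a median of 11.5 in 7 controls. The groups overlapped in part (log2 0.28 ± 0.07 SE, limma adjusted p = 0.0173, edgeR adjusted p = 0.0225). Over all genes 5.76% were called, 3.39% higher and 2.37% lower, and edgeR called 5.03%. DESeq2 likewise gave 1 higher gene and none lower, with 8.13% called of the 8306 genes to which it gave an adjusted p. The call was lost when controls 28 and 29, which held the lowest Npc2 of the controls, were both left out (log2 0.22, limma adjusted p = 0.0754; 5.48% of all genes then called). The median over the 34 genes was log2 0.00, as over all genes, and for 30 of the 34 the 95% interval lay within 0.5 log2 units of no change. At unadjusted limma p below 0.05 there were 4 genes, and the share of all genes at that threshold was not worked out, so this count is not read further. No gene had all livers at 0.2 mg/kg above or below all controls, beside 1.56% and 0.706% of all genes. The comparison with controls at 2 mg/kg shares these control livers. Side by side, Npc2 was at log2 0.36 at 2 mg/kg and 0.28 at 0.2 mg/kg, and directly between the doses at 0.08 ± 0.09 (SE, limma adjusted p = 0.731).

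BLT-1 given before the particles was set against particles alone to ask whether these transcripts differed with BLT-1. Whether the receptor was blocked in these livers is not shown by these data. None of the 34 genes was called in either direction by limma or by edgeR, and 0.0929% of all genes were called by each (0.0279% higher and 0.065% lower by limma). DESeq2 called none of them and 0.757% of the 12290 genes to which it gave an adjusted p. Without controls 28 and 29 limma called none of the 34 and 0.112% of all genes. No gene had all livers with BLT-1 above or below all livers without it, beside 0.957% and 0.799% of all genes. At unadjusted limma p below 0.05 there was 1 gene, Ctsc (cathepsin C), at 26.4 ± 4.68 CPM with BLT-1 and 21.0 ± 2.43 CPM at 0.2 mg/kg alone (SD, n = 4 and 8; limma adjusted p = 0.551). The share of all genes at that unadjusted threshold was not worked out. All 34 intervals lay within 1 log2 unit of no change and 30 within 0.5, and the median was log2 0.03. Npc2 was at 11.8 to 13.5 CPM with BLT-1 and at 11.9 to 15.9 CPM without it (log2 -0.12, interval -0.29 to 0.05). Cd63 held 9.89 to 15.6 CPM with BLT-1, against 9.42 to 12.9 CPM without it (log2 0.09, interval -0.38 to 0.55).

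Against controls, the livers with BLT-1 and particles likewise gave no call among the 34 genes by limma or edgeR. Limma called 2.8% of all genes (1.86% higher and 0.938% lower) and edgeR 2.71%, while DESeq2 called 6.54% of the 7069 genes to which it gave an adjusted p. At unadjusted p below 0.05 limma gave 3 genes: Asah1 (log2 0.28), Pla2g15 (0.26) and Atp6v1a (0.14), with adjusted p between 0.158 and 0.303. Here too the share of all genes at that unadjusted threshold was not worked out. Pla2g15 was the 1 gene whose livers did not overlap, at 1.46 to 1.75 CPM with BLT-1 and 0.952 to 1.46 CPM in controls, beside 2.89% of all genes above and 1.61% below in this way. The lowest liver with BLT-1, at 1.463 CPM, lay barely above the highest control, at 1.458 CPM. On the deposited spike-in scale none of the lysosomal genes was called in any of the 5 comparisons, where 0.457%, 0.269%, 0.206%, 0.0% and 0.00896% of all genes were called, in the order in which the comparisons are given here.

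**Figure D3:**
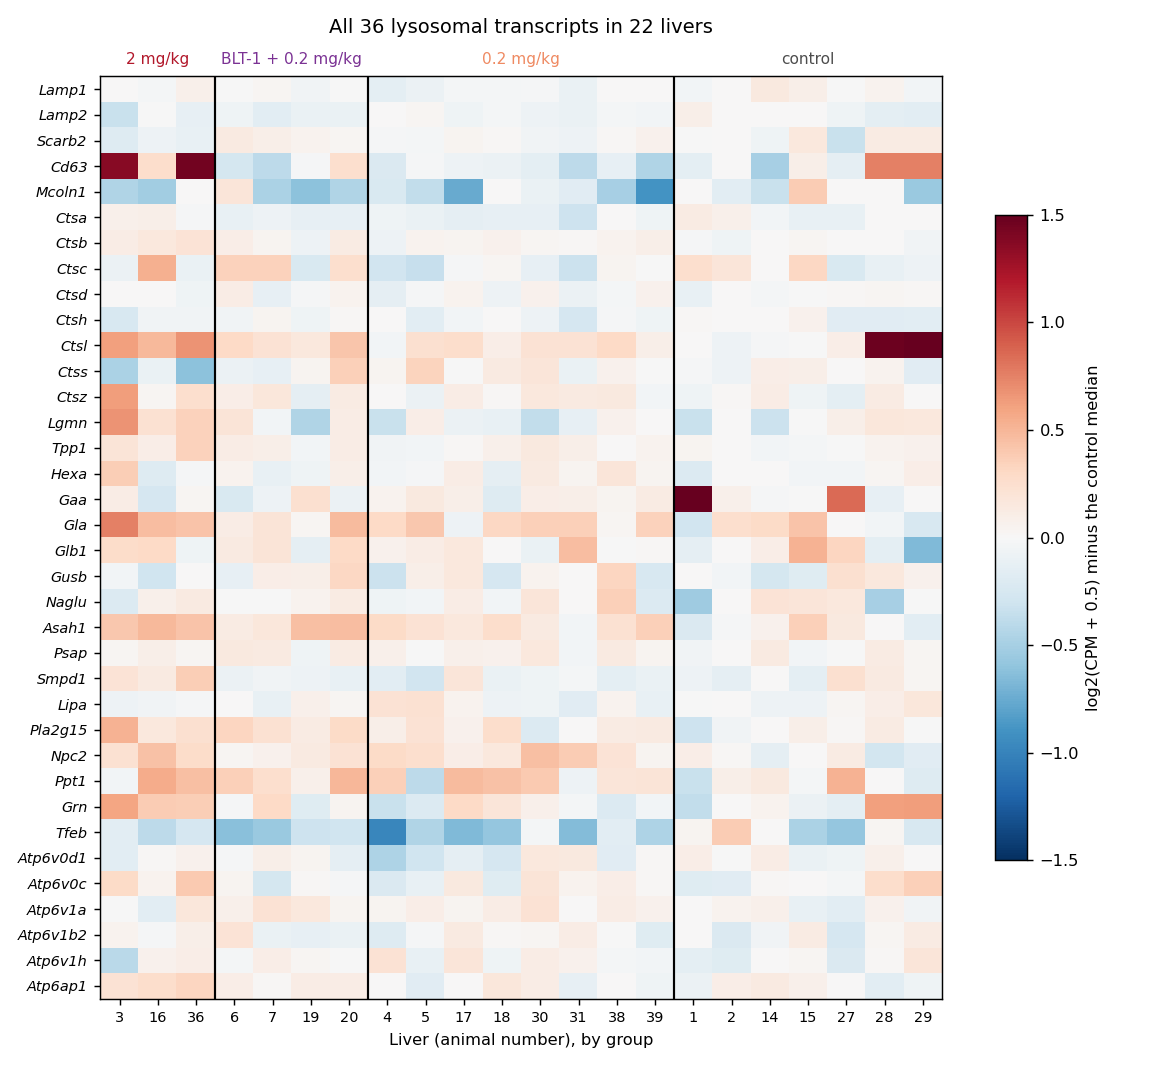
Log2(CPM + 0.5) minus the control median (colour, blue lower and red higher, saturated at 1.5) for all 36 lysosomal genes (rows, by role) in 22 livers (columns, by animal number). Controls 28 and 29 stand out in Ctsl, Cd63 and Grn, control 1 in Gaa, and livers 3 and 36 at 2 mg/kg in Cd63. Gla and Tfeb rest on at most 13 reads per library.

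Ctsl, the cathepsin L gene (ENSMUSG00000021477.10), showed how much the controls mattered. It held 260, 239 and 271 CPM at 2 mg/kg, 189 to 227 CPM with BLT-1, 165 to 210 CPM at 0.2 mg/kg, and in controls 473 and 496 CPM in livers 28 and 29 but 161 to 182 CPM in the other 5. All 3 livers at 2 mg/kg thus lay above 5 controls and below the other 2. With all controls it was at log2 0.16 (limma adjusted p = 0.816), and without controls 28 and 29 it was at 0.59 (limma adjusted p = 4.35e-05). Grn (ENSMUSG00000034708.13), whose protein progranulin is cut into granulins in the lysosome, held 77.2, 66.6 and 65.8 CPM at 2 mg/kg, against 78.5 and 79.2 CPM in controls 28 and 29 and 39.4 to 52.8 CPM in the other 5. It was at log2 0.35 with all controls (limma adjusted p = 0.306) and at 0.55 without those 2 (limma adjusted p = 0.0107). As those were the 2 highest controls in both Ctsl and Grn, leaving them out raises both fold changes by itself.

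Controls 28 and 29 lay above the other 5 controls in 8 of the 34 genes (23.5%) and below in 3 (8.82%), where 13.8% and 12.7% of all genes did so. They also held the highest neutrophil and the lowest hepatocyte marker sums of the controls, whose part in this was not tested. Cd63 was at 22.4 and 22.5 CPM in them and at 9.12 to 13.97 CPM in the others, and Atp6v0c at 83.7 and 89.1 CPM and at 61.2 to 70.4 CPM. Without them, 8 genes were higher at 2 mg/kg than in controls (Asah1, Cd63, Ctsb, Ctsl, Grn, Lgmn, Npc2 and Tpp1) and Ctss was lower, with 11.8% of all genes called. In Cd63, Ctsl, Grn, Lgmn and Tpp1 these were the 2 highest controls, so leaving them out raises the fold change by itself. The calls of those genes without them are thus no separate support for a difference. Atp6ap1 was then at log2 0.21 (limma adjusted p = 0.0799). Between the doses the same change of libraries gave 6 higher genes, with Ctsl at log2 0.41 (limma adjusted p = 0.000866) and Grn at 0.47 (limma adjusted p = 0.0239) added, and 8.04% of all genes called. Neither dose group holds these 2 controls, which act there only through the fit that all groups share. In Ctsl and Grn all livers at 2 mg/kg lay above all livers at 0.2 mg/kg. With BLT-1 against the 5 controls, Ctsl alone was called (log2 0.27, limma adjusted p = 0.0328; 3.8% of all genes called). This too leaves out the 2 controls with the highest Ctsl.

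**Figure D4:**
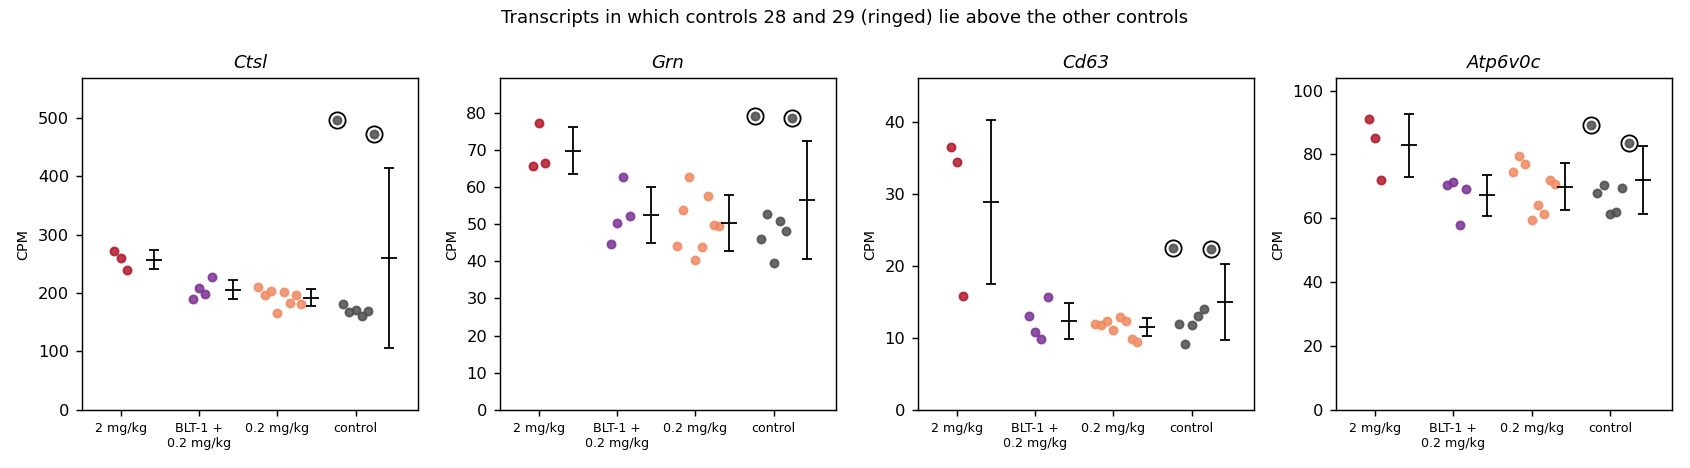
CPM (vertical axis, from 0) of Ctsl, Grn, Cd63 and Atp6v0c in each liver, with the mean and SD of each group beside its points and controls 28 and 29 ringed. The ringed controls lie above the other 5 controls in all 4 genes, and in Ctsl and Grn also above all 3 livers at 2 mg/kg.

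Other lysosomal genes were read from a list of 100 further names, of which 94 were in the table and 81 were tested. At 2 mg/kg 7 of the 81 were higher than in controls and 2 were lower, beside the same 7.87% of all genes, and the list's median was log2 0.03. Tcirg1, a membrane subunit of the pump, was at 6.08 ± 1.39 CPM at 2 mg/kg and 3.36 ± 0.806 CPM in controls (SD; log2 0.77, limma adjusted p = 0.0153), and Laptm4a, a transporter of the lysosomal membrane, was at 126 to 159 CPM and 104 to 122 CPM (log2 0.31, limma adjusted p = 0.00501). The lower ones were Gm2a, an activator protein that presents ganglioside to its hydrolase (log2 -0.42, limma adjusted p = 0.0364), and the sorting receptor Sort1 (log2 -0.49, limma adjusted p = 0.0263, edgeR adjusted p = 0.166). Without controls 28 and 29 the list had 6 higher and 4 lower, beside 11.8% of all genes.

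At 0.2 mg/kg 6 of the 81 were higher than in controls and none was lower, beside 3.39% of all genes higher and 2.37% lower, with the list's median at log2 0.00. By edgeR 5 of 82 tested were higher and 1 was lower, beside 5.03% of all genes called. Laptm4a was at 136 to 154 CPM in 8 livers at 0.2 mg/kg, against 104 to 122 CPM in 7 controls. The groups did not overlap (log2 0.34 ± 0.05 SE, limma adjusted p = 0.000128). Lamtor5, a part of the Ragulator scaffold on the lysosome, was at log2 0.27 (limma adjusted p = 0.0117), and the cysteine protease Ctso at 0.35 (limma adjusted p = 0.0126). Rnaset2b, a lysosomal ribonuclease gene with a near-identical copy that can share its reads, was at 0.28 (limma adjusted p = 0.0149). Without controls 28 and 29, 4 of the 81 were higher, beside 5.48% of all genes called. Between the doses 2 of the 81 were higher at 2 mg/kg and 1, Sort1, was lower (log2 -0.50, limma adjusted p = 0.0243, edgeR adjusted p = 0.127), beside 5.97% of all genes called. With BLT-1 against particles alone none of the 81 was called by limma or edgeR. With BLT-1 against controls, where 2.8% of all genes were called, 4 were higher (Rnaset2b, Lamtor5, Laptm4a and Ctso; log2 0.49, 0.39, 0.29 and 0.38).

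Cathepsin S is known from macrophages and other antigen-presenting cells, and markers of Kupffer cells were read beside it. The sum of 15 Kupffer cell genes was 81.2 to 104 CPM at 2 mg/kg, 96.8 to 127 CPM with BLT-1, 93.3 to 127 CPM at 0.2 mg/kg and 109 to 141 CPM in controls. At 2 mg/kg 5 of the 15 were lower than in controls and none was higher, beside 3.84% and 4.03% of all genes, among them Cd163 (log2 -0.97, limma adjusted p = 0.00182) and the complement gene C1qc (-0.57, limma adjusted p = 0.00194), with a list median of log2 -0.50. Without controls 28 and 29, 11 of the 15 were lower, beside 11.8% of all genes called in either direction. At 0.2 mg/kg, where Ctss was at log2 0.09 (limma adjusted p = 0.66), 4 of the 15 were lower and 1 higher, beside 2.37% and 3.39% of all genes. Vsig4, a complement receptor of Kupffer cells, was at 5.82 to 6.29 CPM at 2 mg/kg, 4.37 to 7.65 CPM with BLT-1, 4.34 to 9.11 CPM at 0.2 mg/kg and 8.54 to 12.6 CPM in controls. Clec4f, which defines Kupffer cells, averaged 2.18 ± 0.423 CPM at 2 mg/kg and 3.76 ± 1.12 CPM in controls (SD; limma adjusted p = 0.0592), and no gene of the list was at 0.

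Markers of other cells were read in the same way, beside 4.03% of all genes called higher and 3.84% lower at 2 mg/kg against controls, and 3.39% and 2.37% at 0.2 mg/kg. The 9 monocyte genes summed to 71.4 to 81.0 CPM at 2 mg/kg and 57.7 to 86.0 CPM in controls, with 1 of 5 tested called higher. The 6 neutrophil genes found summed to 40.4 to 113 CPM at 2 mg/kg and 7.61 to 60.1 CPM in controls, with 1 of 3 tested called higher, and 2 of the 6 (Cxcr2 and Mmp8) stayed below 0.5 CPM in every library. Csf3r and Ly6g of the list of 8 were not found. Where the sum was high it was mostly S100a8 and S100a9, at 52.3 and 52.6 CPM in liver 3 and 29.8 and 25.2 CPM in control 28. The sum thus follows these 2 genes and is not a count of neutrophils. The sum was 113, 40.4 and 103 CPM in livers 3, 16 and 36 and 60.6 CPM in BLT-1 liver 20, the highest of its group, and in controls 60.1 and 57.1 CPM in livers 28 and 29 but 7.61 to 28.4 CPM in the other 5. Cd63 was likewise higher in livers 3 and 36 than in liver 16, highest of its group in BLT-1 liver 20, and higher in controls 28 and 29 than in the other 5. Elsewhere the order differed. At 0.2 mg/kg liver 17 had the highest neutrophil sum (34.8 CPM), with Cd63 at 12.4 CPM. Liver 5 had the lowest sum (16.2 CPM) and the highest Cd63 (12.9 CPM). Among the other 5 controls Cd63 was highest in control 15 (13.97 CPM, sum 17.6 CPM), while the sum was highest in control 2 (28.4 CPM, Cd63 13.1 CPM). Of 4 tested genes of T and NK cells, 2 were higher at 2 mg/kg. Of 9 sinusoidal endothelial genes 1 was higher, and of 7 stellate cell, 2 cholangiocyte and 1 B cell gene tested none was called by limma or edgeR. Hepatocyte genes were lower in 6 of 10 at 2 mg/kg, with sums of 24261 to 30882 CPM, against 33710 and 32496 CPM in controls 28 and 29 and 38664 to 43605 CPM in the other 5. Of 20 tested interferon-responsive genes, 14 were higher at 2 mg/kg and 15 at 0.2 mg/kg than in controls, and none was lower in either. The part of these cell type and interferon shifts in the values of Ctss, Cd63 and the other lysosomal genes was not tested.

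**Figure D5:**
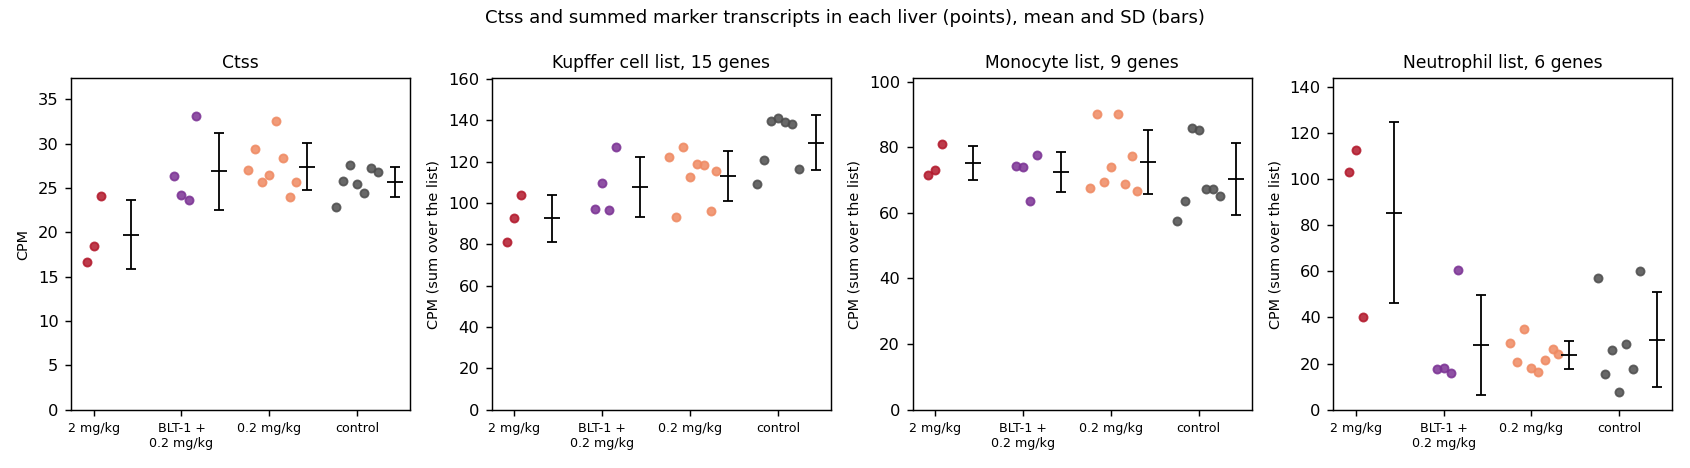
CPM (vertical axis, from 0) of Ctss and of the summed Kupffer cell, monocyte and neutrophil markers in each liver, with the mean and SD of each group beside its points. At 2 mg/kg the Kupffer cell sum lies at 81.2 to 104 CPM, below all 7 controls (109 to 141 CPM), and liver 16 is the 1 liver at 2 mg/kg with Ctss inside the control range.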

How the data were processed

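Libraries were 3' end mRNA libraries with ERCC spike-ins, per the labels' protocols. Per the submitters' processing notes, the tools were bcl2fastq, Trim Galore 0.6.7, STAR 2.7.9a, Salmon 1.5.2, R 4.1.1 and DESeq2 1.32.0, with build GRCm39. The deposited table holds a signal per gene and library: reads multiplied by 1 factor per library (0.458 to 2.12 deposited units per read) that follows the spike-ins (2.58 to 7.18% of reads). Whole reads were recovered from that signal for 100% of values within 0.001. Spike-ins and 16469 genes fill the 16553 rows.

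Reads were scaled by TMM (edgeR 4.0.16) to CPM, and log2(CPM + 0.5) was tested with limma 3.58.1 with a mean-variance trend in R 4.3.3, with all 22 libraries of the 4 groups in 1 fit. Genes with at least 1 CPM in at least 3 libraries were kept, and Benjamini-Hochberg adjustment ran over 10763 genes in each comparison (calls below 0.05). Fold changes of low genes are understated on the log2(CPM + 0.5) scale. The deposited scale was an alternative, as were edgeR quasi-likelihood (filterByExpr) and DESeq2 1.42.0 on recovered reads. Nothing in the labels says how the animals were housed or run, so p-values measure the spread between these livers. No molecular barcodes are given, so copies of 1 molecule count as reads.

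Members and lists were chosen with earlier results of these data known. Values per library are given for every member called by limma or edgeR, and other members by counts with up to 2 examples per role, plus members that the libraries 28 and 29 or 1 control affect, which were chosen after their values were seen. Further lysosomal genes and markers are named from the called ones with the smallest adjusted p; some of these are not reported here. Calling was tested on simulated reads. Promoters are from RefSeq GRCm38.p6, and no coordinates of the files' build were used.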

Additional observations from a re-analysis of the deposited data

Results flagged for a closer look

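Of 108 groups of 4 or more livers, in 36 genes, 10 held a liver far from the rest by Dixon's test at the 95% level, where chance gives about 1 in 20. In controls these were Gaa at 34.1 CPM in liver 1 (the others 4.79 to 9.87) and Ctsd at 52.2 CPM in liver 1 (the others 55.1 to 57.3). At 0.2 mg/kg they were Gaa at 4.56 CPM in liver 18, Ctsb at 45.9 CPM in liver 4 and Glb1 at 2.31 CPM in liver 31. With BLT-1 they were Mcoln1 at 9.77 CPM and Atp6v1b2 at 6.69 CPM in liver 6, Tpp1 at 15.5 CPM and Psap at 61.7 CPM in liver 19, and Atp6ap1 at 11.0 CPM in liver 7. The pair of controls 28 and 29, which stands out in Ctsl, cannot be found this way, since the test looks for a single liver.

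The effect against the same controls differed between 2 mg/kg and 0.2 mg/kg in 5 genes, tested as the contrast of the doses by limma. The difference was log2 1.22 for Cd63 (adjusted p = 0.0043), -0.47 for Ctss (0.00972), 0.52 for Lgmn (0.0299), 0.32 for Smpd1 (0.0324) and 0.27 for Atp6ap1 (0.0284). By limma, Smpd1 and Lgmn were called between the doses and in neither dose against all 7 controls, while DESeq2 called Lgmn at 2 mg/kg against controls (adjusted p = 0.0496) and did not call Smpd1 between the doses (adjusted p = 0.069).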

How the results depend on the processing

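On the deposited spike-in scale no lysosomal gene was called: 0 were higher and 0 lower at 2 mg/kg against controls and at 2 against 0.2 mg/kg, and 0 were higher at 0.2 mg/kg against controls; Ctsb and Tpp1 reversed sign at 2 mg/kg (-0.073 and -0.040). With only the 2 groups compared in the fit, 0 were higher and 0 lower at 2 mg/kg. Without controls 28 and 29, by limma and by edgeR (the edgeR fit was chosen after seeing the data), 0 were higher at 0.2 mg/kg and 1 was higher with BLT-1 against controls. With 1 liver left out, the higher and lower counts ranged over 0 to 8 and 0 to 1 at 2 mg/kg, 1 to 1 and 0 to 0 at 0.2 mg/kg, 0 to 5 and 0 to 1 between the doses, and 0 to 0 in both BLT-1 comparisons. In these fits calls over all genes ranged over 373 to 1056 at 2 mg/kg against controls and 228 to 827 between the doses. DESeq2, RLE factors, pseudocounts of 0.1 and 2, no filter and animal number ranges as a covariate, which the labels do not call batches, kept the counts within 1.5 times; with that covariate Ctsb and Atp6ap1 lost their calls at 2 mg/kg against controls and Tpp1 gained one between the doses. Of 143 values of called genes under other settings, 107 stayed called, 34 lost the call in the same direction and 2 reversed; with 1 liver left out, 99 of 140 stayed called and 41 lost it. The cause of these losses was not tested. No paired analysis was possible because the animal numbers are unique to 1 liver each. With 3 livers at 2 mg/kg, the SEs of the lysosomal genes against controls had a median near log2 0.10. In the simulated comparison 20.9% of genes changed 1.5-fold were called. Those genes were drawn from all levels of expression, so this is not the share for the lysosomal genes.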
